A study of Mus musculus with 15 samples.

Results

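Intronic circular RNAs (ciRNAs) are closed RNA circles made of intron sequence. The members described here are all entries of the deposited circRNA table that are classed as ciRNA, which are 1119 of 11929 circRNAs, and the other 10810 are classed as circles of exons. Kidneys came from male C57BL/6 mice (C57BL/6J in the study's methods) at 3, 12 and 24 months of age, with 5 mice at each age and 1 library per mouse, and the labels name no transgene, deletion or treatment in any group. The study's methods describe mice of 3 and 24 months only and no 12-month group. Mice carry the numbers of their labels, which are 5 to 9 at 3 months, 17 to 21 at 12 months and 31 to 35 at 24 months. All sample titles begin with 3M, so ages were taken from the age label, which the column names share. The labels describe removal of ribosomal RNA and a stranded kit, whereas the study's methods describe selection of polyadenylated RNA and speak of pooled RNA. The p-values measure the spread between mice of an age. In whole kidney, fewer cells of a type and less RNA per cell cannot be told apart.

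An intron leaves the pre-mRNA as a lariat, in which its first base is joined to an adenosine, the branch point, that lies shortly before the 3′ splice site. The debranching enzyme Dbr1 normally opens the lariat, and the linear intron is then degraded. A ciRNA is a lariat that is not opened and has lost its tail, so that it runs from the 5′ splice site to the branch point. Other intron circles join the first and the last base of the intron. Circles of intron sequence are known to be kept mostly in the nucleus, and some act at the gene that they come from.

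Sequence could be read for 68 of the 1119 ciRNAs, from annotated transcripts with an exon that runs through the whole ciRNA (GENCODE M21, GRCm38). Most ciRNAs lie in no such exon, so these are a special part of the class. Of the 68, 66 began with GT and 2 with GC, the first bases of introns. This follows from the annotation, since all 1119 begin at the first base of an annotated intron. Other annotated introns with sequence began with GT in 97.6%. All 34 that ended at an annotated 3′ splice site ended in AG, against 1 of 34 that ended before it. Annotated 3′ splice sites mostly end in AG, so this too follows from the annotation. Hspa8 ciRNA520, at chr9:40802128-40802417 on the plus strand, comes from the gene of a constitutive chaperone. It runs from the first base of an intron to an annotated 3′ splice site. It is printed here with its first and last 6 bases, which are joined in the circle, in capitals.
Hspa8 ciRNA520: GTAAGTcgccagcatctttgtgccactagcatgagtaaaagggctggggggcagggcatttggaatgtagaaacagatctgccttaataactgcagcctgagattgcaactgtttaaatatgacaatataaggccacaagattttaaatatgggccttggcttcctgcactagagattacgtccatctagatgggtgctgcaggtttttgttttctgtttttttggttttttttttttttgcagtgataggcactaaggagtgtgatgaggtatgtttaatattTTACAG

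The paralogous kinase genes Clk1 and Clk4, whose products phosphorylate splicing factors, have ciRNAs in introns that end alike. These are Clk4 ciRNA761, at chr11:51272023-51272881 on the plus strand, and Clk1 ciRNA227, at chr1:58420410-58421082 on the minus strand. Their last 60 bases were identical at 54 positions, including an unbroken run of 37 up to the joined end, against 29 of their first 60 bases. Both stop far before the nearest annotated 3′ splice site, by 196 and 198 bases. Identical bases are in capitals in the last 60 bases below.
Clk4 ciRNA761: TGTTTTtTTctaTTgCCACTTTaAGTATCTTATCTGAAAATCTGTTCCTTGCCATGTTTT
Clk1 ciRNA227: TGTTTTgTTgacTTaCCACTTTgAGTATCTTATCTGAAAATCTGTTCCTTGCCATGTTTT
The other 4 Clk4 ciRNAs share the first base of ciRNA761 and end elsewhere in the same intron. Of their last 30 bases the last 6 are in capitals, and ciRNA95 alone runs to an annotated 3′ splice site. They lie on the plus strand at chr11:51272023-51272878, chr11:51272023-51272880, chr11:51272023-51272891 and chr11:51272023-51273077, in the order shown.
Clk4 ciRNA533: tcttatctgaaaatctgttccttgCCATGT
Clk4 ciRNA600: ttatctgaaaatctgttccttgccATGTTT
Clk4 ciRNA830: tctgttccttgccatgtttttcttCTGTAA
Clk4 ciRNA95: gatcttggtgctgcccacttgccgTTCCAG
Sod1 ciRNA187, at chr16:90222877-90224355 on the plus strand, comes from the gene of cytosolic superoxide dismutase. It ends at an annotated 3′ splice site, and its first and last 30 bases are shown. The 6 bases next to the joint are in capitals.
Sod1 ciRNA187, first bases: GTAGGTcctaggctggctagtgaccagtga
Sod1 ciRNA187, last bases: ataatctgactgctggtttctggtAAATAG
The 5 Clk4 ciRNAs overlap and may share most of their reads, with levels between 1.36 and 1.51 FPKM, and Clk1 ciRNA227 had 12.2 FPKM. None of the 6 passed a test of age, with log2 changes between 0.09 and 0.28 from 3 to 24 months. How reads of near-identical stretches were shared out is not given in the sources used here.
The letters GTAAG, read on the transcribed strand only, stood first in 21 of the 59 distinct introns with sequence (35.6%). They stood first in 1576 of 7483 other annotated introns whose sequence could be read in the same way (21.1%), which is given as a description.

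All 1119 ciRNAs begin at the first base of an annotated intron (GENCODE M21, GRCm38), while their ends vary. Distances were taken to the nearest annotated 3′ splice site at or past the end on the same strand. This site need not be that of the flanking intron. The end stood at such a site in 495 ciRNAs (44.2%) and 1 to 9 bases before it in 223 (19.9%). It stood 10 to 60 bases before it, where branch points usually lie, in 232 ciRNAs (20.7%), with a median distance of 27 bases in this window. The other 169 (15.1%) ended farther away. So the class holds both circles that run to an annotated 3′ splice site and circles that stop short of one. The rule by which the authors' caller set the ends is not given in the sources used here.

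**Figure D1:**
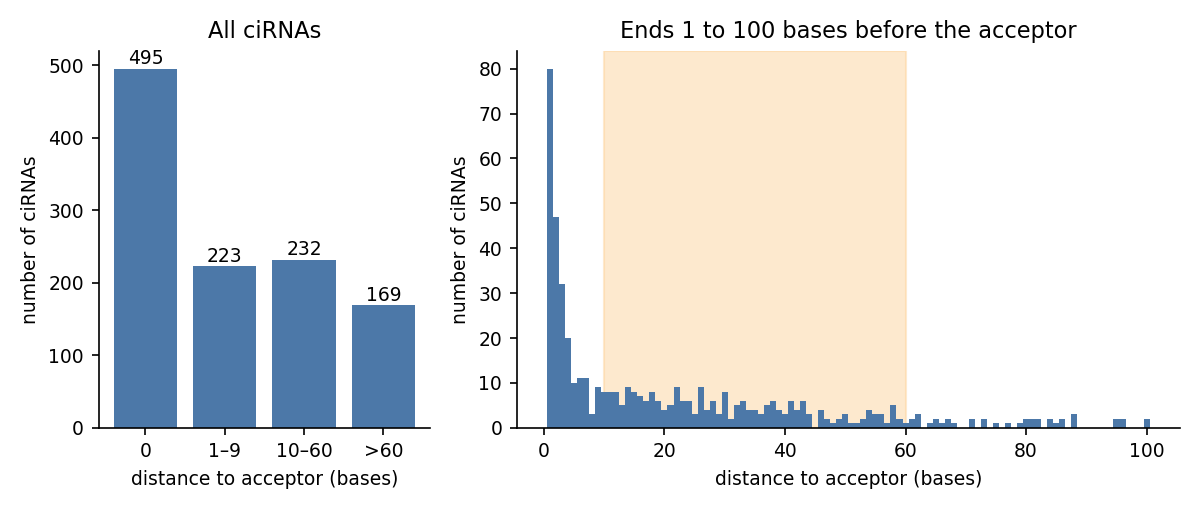
Where the 1119 ciRNAs end relative to the nearest annotated 3′ splice site at or past their end, as the number of ciRNAs by distance in bases. The largest group, 495 ciRNAs, ends at the splice site itself, and 232 end 10 to 60 bases before it.

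The 1119 ciRNAs come from 880 host genes and 1016 introns. One ciRNA was listed for 725 hosts and 2 or more for 155. Agfg1, which encodes a protein of vesicle transport, has the most, with 10 ciRNAs of 1 intron, at chr1:82893583-82894481 on the plus strand, whose ends lie 43 to 59 bases before a 3′ splice site. Hnrnpk, which encodes an RNA-binding protein, has 9, Col4a3, a collagen chain of the glomerular basement membrane, and Slc12a1, the sodium-potassium-chloride cotransporter of the thick limb, have 7 each, and Wnk1, a kinase that controls salt transport, and 2810403A07Rik have 6 each. Many of these are one measurement listed several times: 81 ciRNAs fall into 35 sets with identical values in every mouse, and the 10 Agfg1 ciRNAs are one such set. In all, 178 ciRNAs overlap another. Members are therefore not independent of each other.

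Most hosts code for protein (1110 ciRNAs, against 9 in lncRNA genes), and 991 ciRNAs lie between coding exons. The first intron of the host transcript held 64 of 1112 ciRNAs with a known intron number, against 116 if every intron of each host transcript were equally likely, and the last intron held 137. The ciRNAs had a median length of 985 bases, with quartiles of 640 and 1692 and a range from 152 to 62544. Their introns had a median length of 1164 bases, and all annotated introns of the same hosts had a median of 1475. A snoRNA gene lies inside 9 ciRNAs, an snRNA gene inside 4 and a miRNA gene inside 1. Of the 880 hosts, 506 also have exonic circRNAs and 374 do not. Ankrd52, Mcm5, Sirt7 and Ins2, hosts of ciRNAs described early in other work, have no entry of this class in the table.

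Whether the estimated counts hold reads of the whole stretch between the ends of a circle is not given in the sources used here. They could also hold only reads across the joint. The deposited FPKM (fragments scaled to transcript length and read total) of a ciRNA equalled its count divided by its length and by one constant per mouse, to within 0.487%, and this constant gave between 33099114 and 46347385 reads per mouse. Such scaling to length is how FPKM is defined and does not tell which reads were counted. If the whole stretch was counted, reads of unspliced host RNA or of an exon within it cannot be told apart from circle reads. Of the 1119 ciRNAs, 790 (70.6%) overlap no annotated exon on their strand, 329 overlap one and 83 lie whole inside a single exon. Whether strand was used in counting is not given in the sources used here, and 767 ciRNAs are free of exons on both strands. The median FPKM was 0.688 in exon-free ciRNAs, 1.29 in those with an exon and 1.51 in those inside an exon.

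Per length, ciRNAs were mostly scarce. The median over the 1119 of the mean FPKM over 15 mice was 0.814, with quartiles of 0.412 and 1.75, against 10.98 for exonic circRNAs. Only 30 ciRNAs reached 10 FPKM, and 634 were below 1. Yet 1078 were above 0 in all 15 mice and the other 41 in at least 2 mice.

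The highest level belonged to Malat1 ciRNA303, at chr19:5796331-5797003 on the minus strand, with 5057 FPKM. Malat1 is an abundant nuclear lncRNA, and this ciRNA lies whole inside one of its exons. It alone took between 47.6% and 53.2% of all ciRNA counts of a mouse, and the 10 most abundant ciRNAs took between 62.2% and 67.1%. Umod ciRNA460 (573 FPKM), from the gene of uromodulin, the main protein of normal urine, and Slc12a3 ciRNA1119 (86.1 FPKM), from the gene of the thiazide-sensitive sodium-chloride cotransporter of the distal tubule, also lie inside exons. Exon-free ciRNAs took between 21.6% and 24.6% of ciRNA counts. The highest totals thus fell on entries that exon reads could fill.

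By CPM, the counts of a ciRNA scaled to the circRNA total of the mouse with edgeR's TMM factor, the other 7 of the first 10 were Gm45193 ciRNA464, Plxna2 ciRNA741, Ppargc1a ciRNA472, Gpx3 ciRNA907, Atp6v1a ciRNA771, Farp1 ciRNA451 and Atp1b1 ciRNA517. They include the longest member, Plxna2 ciRNA741, with 62544 bases and a semaphorin receptor as host, which had 0.986 FPKM. Among them, Atp1b1 ciRNA517, of a subunit of the sodium-potassium pump, and Atp6v1a ciRNA771, of the proton pump's catalytic subunit, overlap no exon of their strand, with 18.1 and 1.86 FPKM. Gpx3 ciRNA907, whose host is the secreted glutathione peroxidase of the proximal tubule, had 45.7 FPKM. Ppargc1a ciRNA472, of a coactivator of mitochondrial genes, had 3.82 FPKM. Farp1 ciRNA451 had 3.31 FPKM and Gm45193 ciRNA464 had 4.47 FPKM. Totals of counts therefore favour long entries, and levels between genes are compared per length only.

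The share of circRNA counts that fell on ciRNAs did not differ detectably between ages. It was 3.19% ± 0.115 (SD, n = 5) at 3 months, 3.14% ± 0.127 at 12 months and 3.17% ± 0.120 at 24 months, and ranged from 2.93% to 3.38% over the 15 mice. In exact two-sided permutation tests over mice, p was 0.873 for 24 against 3 months, 0.587 for 12 against 3 and 0.738 for 24 against 12, where 0.00794 is the smallest p that 252 assignments allow. Without Malat1 ciRNA303 the share was 1.55% ± 0.0231 at 3 months, 1.56% ± 0.0516 at 12 months and 1.63% ± 0.0556 at 24 months. The difference of 0.0778 percentage points between 24 and 3 months then had an exact permutation p of 0.0159.

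**Figure D2:**
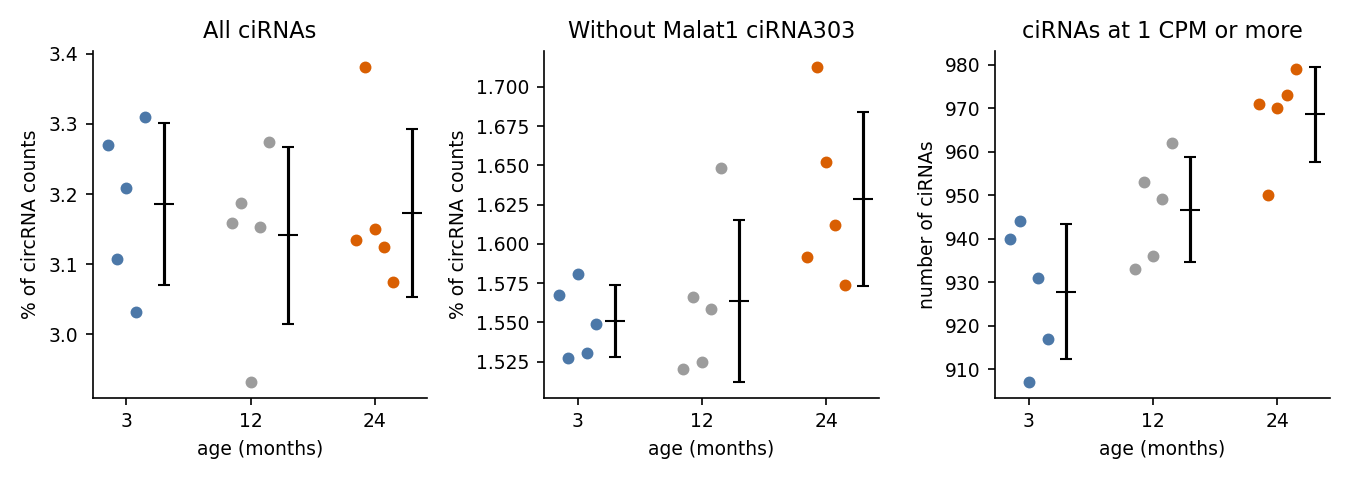
Share of circRNA counts on ciRNAs in each mouse, in percent, by age, for all ciRNAs and without the most abundant one, with the mean and SD of 5 mice. All ciRNAs together lie between 2.93% and 3.38% with the ages mixed.

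Slightly more ciRNAs were detected in older mice. The number above 0 was 1108.4 ± 2.61 (SD, n = 5) at 3 months, 1111.6 ± 2.07 at 12 months and 1113.6 ± 1.82 at 24 months. The gain of 5.2 from 3 to 24 months had an exact permutation p of 0.00794, the smallest the design allows, and the gains of 3.2 from 3 to 12 months (p = 0.0873, exact permutation test) and of 2 from 12 to 24 months (p = 0.190, exact permutation test) did not pass. The reads per mouse moved the same way, with means of 34863334, 41011817 and 40595878 at 3, 12 and 24 months. At a limit of 1 CPM without TMM factors, which takes the total of each mouse into account, the numbers were 927.8, 946.6 and 968.6, and the gain of 40.8 from 3 to 24 months again had an exact permutation p of 0.00794. At this limit the gain of 22 from 12 to 24 months passed (p = 0.0238, exact permutation test) and that of 18.8 from 3 to 12 months did not (p = 0.0714, exact permutation test). The TMM factors left out at this limit ranged from 0.950 to 0.996 at 3 months and from 1.01 to 1.03 at 24 months. Leaving them out raises the CPM of 24-month mice relative to 3-month mice, and numbers with TMM factors are not given. The part of depth and of scaling in these gains was not tested beyond this limit.

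The tissue was checked on linear genes. The summed FPKM of 3 proximal tubule markers ranged from 1164 to 1682 over the 15 mice and that of 2 thick limb markers from 877 to 1181, and no marker looked for was at 0 or passed adjustment between 3 and 24 months. The summed level of 4 leukocyte markers (Ptprc, Cd3e, Cd79a, Adgre1) ranged from 2.66 to 8.63 FPKM at 3 months, from 8.75 to 14.1 at 12 months and from 6.44 to 11.3 at 24 months. For 24 against 3 months 3 of the 4 had an unadjusted limma p under 0.05 and none passed adjustment. The 2 collecting duct markers summed to between 51.6 and 152 FPKM at 3 months and between 36.1 and 68.1 at 24 months, and 1 of them had an unadjusted p under 0.05, as had 1 of the 3 proximal tubule and 1 of 2 endothelium markers. The circRNA share of reads had a mean of 22.7% at 3 months and 20.6% at 24 months. The part of these in the results below was not tested.

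Between 3 and 24 months, which asks how the kidney of an old mouse differs from that of a young one, 106 of 1116 ciRNAs that passed the filter on low counts changed. These 9.50% stand beside 13.3% of all 11924 circRNAs tested and 13.7% of exonic circRNAs. The test was edgeR's quasi-likelihood test at an adjusted p under 0.05 over all circRNAs. An unadjusted edgeR p under 0.05 was found for 271 ciRNAs and for 3440 of the 11924 circRNAs. Of the 106, 65 were higher at 24 months (6.66% of all circRNAs were) and 41 lower (6.61% of all). The direction depends on the scaling: counted against all reads of a mouse 46 were higher and 54 lower, and with no TMM factor 108 were higher and 32 lower. The median log2 change of the 1116 was 0.06, and that of all circRNAs 8.28e-04. Normalised counts did not overlap between the 2 ages in 66 ciRNAs (5.91%), against 10.5% of all circRNAs. The changes came from 93 hosts and 99 introns, and 21 of those that rose and 11 of those that fell changed over 2-fold. Without 24-month mouse 31 there were 68 calls and without mouse 33 there were 56.

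Changed ciRNAs were found at all levels and with all kinds of ends. Of 485 tested with at least 1 FPKM, 29 rose and 32 fell, and of 631 below 1 FPKM, 36 rose and 9 fell. These changed in 12.6% and 7.13%, and of all circRNAs 6.66% rose and 6.61% fell. Among exon-free ciRNAs 41 of 788 rose and 33 fell (9.39% changed), and among those with an exon 24 of 328 rose and 8 fell (9.76%). By end, 48 of 495 that reach a 3′ splice site changed (9.70%) and 19 of 223 that end 1 to 9 bases before it (8.52%). So did 24 of 231 that end 10 to 60 bases before it (10.4%) and 15 of 167 that end farther away (8.98%). Of all ciRNAs tested 9.50% changed, and of all circRNAs 13.3%. The direction depends on the scaling, as above, and these splits are given at the reported scaling only.

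Cit ciRNA135 had the smallest p. It lies in an intron of the gene of citron kinase, which acts in cytokinesis, at chr5:115995474-115997491 on the plus strand, and overlaps no exon. It stood at 1.04, 3.27, 2.34, 3.77 and 2.48 CPM in the 3-month mice, at 4.75, 4.32, 6.14, 5.81 and 6.33 in the 12-month mice and at 10.9, 10.5, 13.8, 9.28 and 17.6 in the 24-month mice. No mouse of one age overlapped another age. The log2 change from 3 to 24 months was 2.25 ± 0.26 (SE), a 4.75-fold rise (edgeR adjusted p = 4.7e-04). The linear host had 5.08 ± 1.81 FPKM (SD, n = 5) at 3 months and 13.9 ± 4.93 at 24 months (log2 change 1.27, limma adjusted p = 0.0682). All 3 exonic circRNAs of Cit had positive log2 changes.

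Umod has 3 ciRNAs, and their changes differed. Umod ciRNA123, at chr7:119469505-119471333 on the minus strand, ends 17 bases before a 3′ splice site and overlaps no exon. It stood at 11.5, 26.9, 22.4, 18.8 and 15.5 CPM at 3 months, at 21.5, 49.9, 35.8, 43.1 and 66.9 at 12 months and at 60.5, 58.4, 56.8, 42.4 and 89.6 at 24 months. The 24-month mice all lay above the 3-month mice, and the log2 change was 1.69 ± 0.22 (edgeR adjusted p = 0.00105). Umod ciRNA37, of the first intron, overlaps an exon over 14.03% of its length and rose from 8.78 ± 3.88 CPM to 24.9 ± 6.01 (log2 change 1.49 ± 0.26, edgeR adjusted p = 0.00326). The exonic entry Umod ciRNA460 stood at 1223 ± 178 CPM and 1144 ± 213 (log2 change −0.10 ± 0.13, edgeR adjusted p = 0.674), and the linear host at 886 ± 101.46 and 851 ± 43.9 FPKM (log2 change −0.05 ± 0.21, limma adjusted p = 0.924). So both intron stretches rose, while the exon stretch and the linear gene did not pass their tests.

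Hsd3b3 ciRNA488, 9323 bases in a gene of steroid dehydrogenation, stood at 109, 42.6, 58.1, 82.6 and 74.5 CPM in the 3-month mice and at 211, 183, 218, 209 and 166 in the 24-month mice. All old mice lay above all young mice, with a log2 change of 1.43 ± 0.20 (edgeR adjusted p = 0.00121). The gene belongs to a family of close copies, so the reads of this ciRNA are uncertain in their origin. Col27a1 ciRNA139, from a gene of a fibrillar collagen, rose 3.92-fold from 1.26 ± 0.648 to 5.02 ± 1.14 CPM (log2 change 1.97 ± 0.29, edgeR adjusted p = 0.00186). It is a scarce member, with 0.613 FPKM. Gm45193 ciRNA464, the fourth most abundant by counts, rose from 446 ± 106 to 857 ± 103 CPM (log2 change 0.94 ± 0.15, edgeR adjusted p = 0.00238). The calls of these 3, of Cit ciRNA135 and of Umod ciRNA123 stood under all 18 alternatives. The linear host of Gm45193 ciRNA464, a predicted gene, rose as well, from 4.90 to 13.9 FPKM (log2 change 1.33 ± 0.18, limma adjusted p = 0.0210).

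Among those that fell, Chka ciRNA925 had the smallest p. Its host is choline kinase alpha, the first enzyme of phosphatidylcholine synthesis from choline. It stood at 13.3, 8.37, 12.5, 15.2 and 13.1 CPM at 3 months, at 8.55, 5.26, 4.81, 7.84 and 5.06 at 12 months and at 6.07, 4.71, 4.38, 5.29 and 5.72 at 24 months. The 24-month mice all lay below the 3-month mice, and the log2 change was −1.25 ± 0.16 (edgeR adjusted p = 8.06e-04). Fam134b ciRNA189, from the gene of a receptor for the turnover of endoplasmic reticulum, fell from 18.2 ± 6.36 to 5.26 ± 0.957 CPM (log2 change −1.79 ± 0.24, edgeR adjusted p = 0.00101). Gramd1b ciRNA1031 and ciRNA1032 share the first base and 593 bases of an intron of a sterol transfer gene. They fell with log2 changes of −0.97 ± 0.16 and −0.95 ± 0.16 (edgeR adjusted p = 0.00249 and 0.00332), and all 3 exonic circRNAs of Gramd1b had negative log2 changes. These 4 calls, and that of Ndrg1 ciRNA299 given next, stood under all 18 alternatives.

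Ndrg1, a gene of the response to stress and low oxygen, has 3 ciRNAs in separate stretches, and all 3 fell. Ndrg1 ciRNA299 stood at 80.6, 105, 40.7, 66.7 and 46.4 CPM in the 3-month mice and at 25.6, 24.8, 14.8, 22.6 and 22.7 in the 24-month mice. The ages did not overlap, and the log2 change was −1.62 ± 0.24 (edgeR adjusted p = 0.00186). Ndrg1 ciRNA108 and ciRNA375 had log2 changes of −1.60 ± 0.28 and −1.75 ± 0.35 (edgeR adjusted p = 0.00373 and 0.00702). The linear gene fell by 1.60 ± 0.22 on the log2 scale (limma adjusted p = 0.0200), from 978 ± 163 to 324 ± 71.8 FPKM. All 3 exonic circRNAs had negative log2 changes, with a median of −1.36. From 3 to 12 months the 3 Ndrg1 ciRNAs fell with log2 changes of −1.60 to −1.14, beside a linear log2 change of −0.70 ± 0.21 (limma adjusted p = 0.212).

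**Figure D3:**
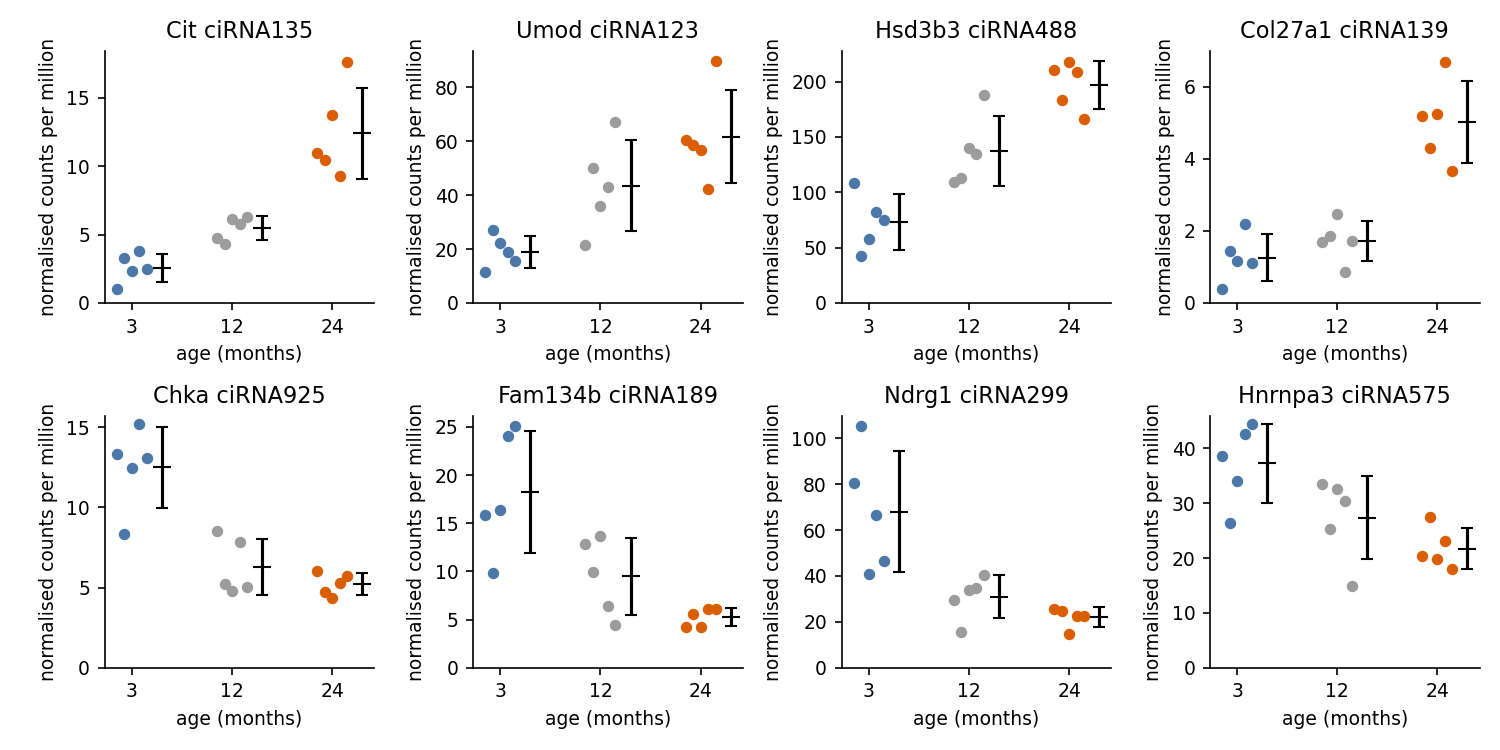
Normalised counts (CPM) of 8 ciRNAs in each mouse by age, with the mean and SD of 5 mice. Cit, Umod, Hsd3b3 and Col27a1 ciRNAs are higher at 24 months, with 4.75-fold for Cit ciRNA135, and Chka, Fam134b, Ndrg1 and Hnrnpa3 ciRNAs are lower.

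Of 155 hosts with 2 or more tested ciRNAs, 122 had log2 changes of one sign in all of them, whether or not they passed the test. A ciRNA changed in 23 of the 155, and in 19 of the 23 the other ciRNAs of the host had the same sign. The other 4 hosts are Ivns1abp, Phka2, Rpl5 and Umod. Phka2, a subunit of phosphorylase kinase, has ciRNA822 that rose (log2 change 1.07, edgeR adjusted p = 0.00772) beside ciRNA661 at −0.65. Some ciRNAs of a host lie in the same intron, 81 of all ciRNAs have values identical to another and 178 overlap another. Identical entries agree in sign by construction, and overlapping ones may share reads. The counts of 122 and 19 hosts are therefore no measure of agreement between independent members. Of 7 Col4a3 ciRNAs, all of separate introns, 3 fell: ciRNA514, ciRNA810 and ciRNA893, with log2 changes of −0.98 ± 0.18, −1.10 ± 0.22 and −0.85 ± 0.21. The other 4 had log2 changes from −0.91 to −0.21 and did not pass the test. The linear host had a log2 change of −0.47 ± 0.11 (limma adjusted p = 0.0798). Both ciRNAs of Slc4a4, the sodium bicarbonate cotransporter of the proximal tubule, fell, with log2 changes of −1.10 ± 0.19 and −1.16 ± 0.24 (edgeR adjusted p = 0.00338 and 0.00843). At least 43 of its 48 exonic circRNAs had a negative log2 change, whether or not they passed the test. The median log2 change of all exonic circRNAs tested was −0.0024. Circles of one gene can overlap, so the 48 are not independent of each other. The linear host stood at 192 ± 18.3 and 172 ± 20.99 FPKM (log2 change −0.16 ± 0.11, limma adjusted p = 0.584). Slc22a2, an organic cation transporter, has 2 ciRNAs with identical values that rose with a log2 change of 0.84 ± 0.20 (edgeR adjusted p = 0.0183) and another, ciRNA294, at 0.72 that did not pass the test. Of the hosts with the most ciRNAs, none of the ciRNAs of Agfg1, Hnrnpk, Slc12a1, Wnk1 or 2810403A07Rik changed. Ivns1abp, Phka2, Slc4a4, Slc22a2 and Umod ciRNA37 and ciRNA460 were chosen after their values were seen, as were all other members named outside the stated rule.

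**Figure D4:**
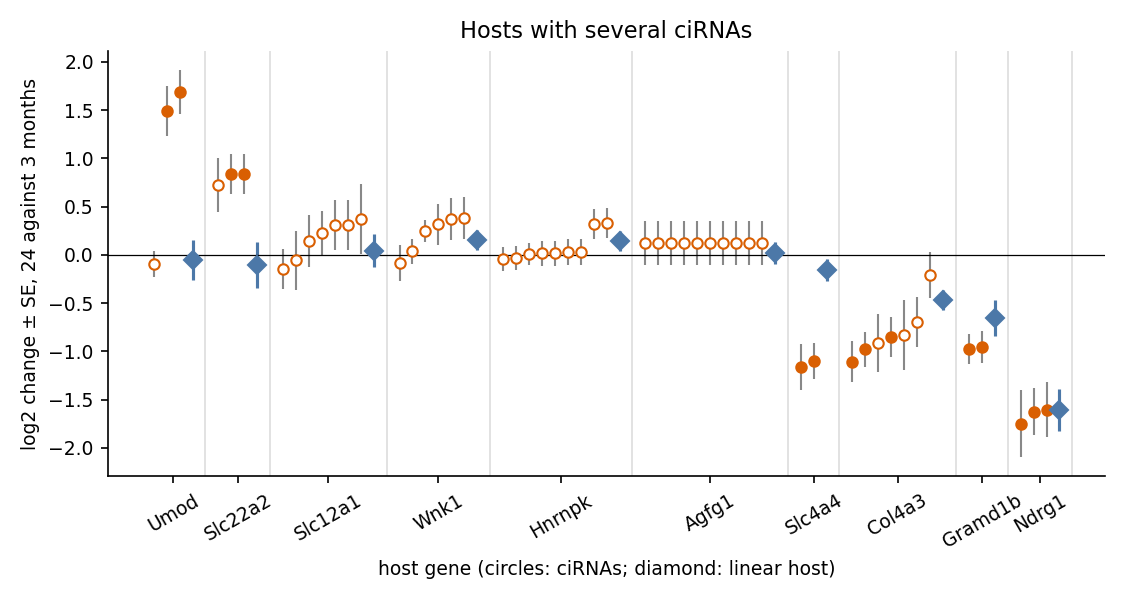
Log2 change from 3 to 24 months of every ciRNA of 10 hosts with several ciRNAs, with SE, beside the linear host gene (diamonds). Filled circles passed the test. In Ndrg1 the ciRNAs lie between −1.75 and −1.60 with the host at −1.60, and in Umod 2 ciRNAs lie at 1.69 and 1.49 with the host at −0.05.

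Gm6300 ciRNA322 had the lowest log2 change, −4.34 ± 0.95 (edgeR adjusted p = 0.0110), and is not a clear case. The 3-month mice stood at 25.7, 0, 6.89, 4.62 and 8.83 CPM and the 24-month mice at 0.758, 0.261, 0, 0.540 and 0.572. One mouse of each age was at 0, so the ages overlapped, and on log2(FPKM + 1) with limma the adjusted p was 0.0537.

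Most changed ciRNAs had a linear host that did not pass the test. The host test called 0.86% of all genes and the ciRNA test 13.3% of all circRNAs, so a host that did not pass may still have changed. Of the 65 that rose, the host was higher with an unadjusted limma p under 0.05 in 8, lower in 1 and at or above that p in 56. Of the 41 that fell, the host was lower in 16, higher in 0 and at or above that p in 25. These counts are of ciRNAs, and the 65 come from 60 hosts and the 41 from 33. A host of several changed ciRNAs, such as Ndrg1 or Col4a3 among those that fell, is thus counted more than once. The difference between these counts was not tested. An unadjusted limma p under 0.05 was found for 144 of the 880 hosts, beside 4492 of 31849 genes. Of the hosts, 18 changed in limma on log2(summed FPKM + 1), 9 each way, beside 0.86% of all genes. Leaving out single mice gave between 2 and 16 such calls, with 2 without 3-month mouse 9 and 3 without 24-month mouse 33. Only 3 of the 18, Ndrg1, Gm45193 and Itgb6, an integrin subunit, had a ciRNA that changed. Akr1c13, a ketosteroid reductase gene, had the smallest p of the 18, with 4.31 ± 0.837 FPKM at 3 months and 9.73 ± 0.840 at 24 months, while its ciRNA904 had a log2 change of 0.38 (edgeR adjusted p = 0.848).

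Taken relative to the linear host, 8 of 1116 ciRNAs changed between 3 and 24 months (0.319% of all circRNAs did), 7 upward and 1 downward. An unadjusted limma p under 0.05 was found for 218, and for 1609 of all 11922 circRNAs. The ratio was log2(CPM + 1) less log2(summed host FPKM + 1), tested with limma. It rose for Tubgcp4 ciRNA576 (0.79 ± 0.10, adjusted p = 0.0143), Umod ciRNA123 (1.71 ± 0.25, adjusted p = 0.0216) and Siae ciRNA1030 (1.30 ± 0.20, adjusted p = 0.0281), and fell for Hnrnpa3 ciRNA575 (−1.02 ± 0.17, adjusted p = 0.0370). It also rose for Hspa8 ciRNA520, Rsph3b ciRNA840, Hsd3b3 ciRNA488 and Tmem183a ciRNA1027. Few of these calls stand on all mice: without 24-month mouse 31, 32, 33, 34 or 35 there were 0, 13, 0, 4 or 4 calls. Without 3-month mouse 5, 6, 7, 8 or 9 there were 2, 7, 1, 2 or 7.

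Tubgcp4, which encodes a part of the microtubule-nucleating gamma-tubulin complex, had an even linear level of 12.3 ± 1.92 FPKM at 3 months and 11.9 ± 1.02 at 24 months. Its ciRNA576 stood at 1.18, 1.83, 1.95, 2.31 and 1.66 CPM at 3 months and at 4.22, 3.27, 3.88, 3.24 and 3.66 at 24 months, with no overlap. Siae removes acetyl groups from sialic acids, and its ciRNA1030 was 2.66-fold higher at 24 months, from 0.933 ± 0.381 to 2.51 ± 0.267 CPM. Hnrnpa3 encodes an RNA-binding protein of splicing. Its ciRNA575 fell from 37.3 ± 7.25 to 21.8 ± 3.68 CPM while the linear gene stood at 38.3 ± 8.38 and 45.8 ± 4.91 FPKM.

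Hspa8 is the reverse case, in which the linear gene moved and the intron did not pass the test. The ciRNA520 shown above stood at 0.784, 1.83, 1.04, 1.34 and 1.10 CPM in the 3-month mice and at 1.41, 2.22, 0.750, 1.30 and 1.03 in the 24-month mice. These values overlap widely (log2 change 0.12 ± 0.31, edgeR adjusted p = 0.841). Linear Hspa8 fell from 728 ± 114 to 276 ± 83.5 FPKM, by 1.43 ± 0.22 on the log2 scale (limma adjusted p = 0.0288). The ratio thus rose by 1.49 ± 0.23 (limma adjusted p = 0.0289). The ciRNA is scarce and 1 is added to its CPM in the ratio, so the ratio here mostly follows the linear gene.

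**Figure D5:**
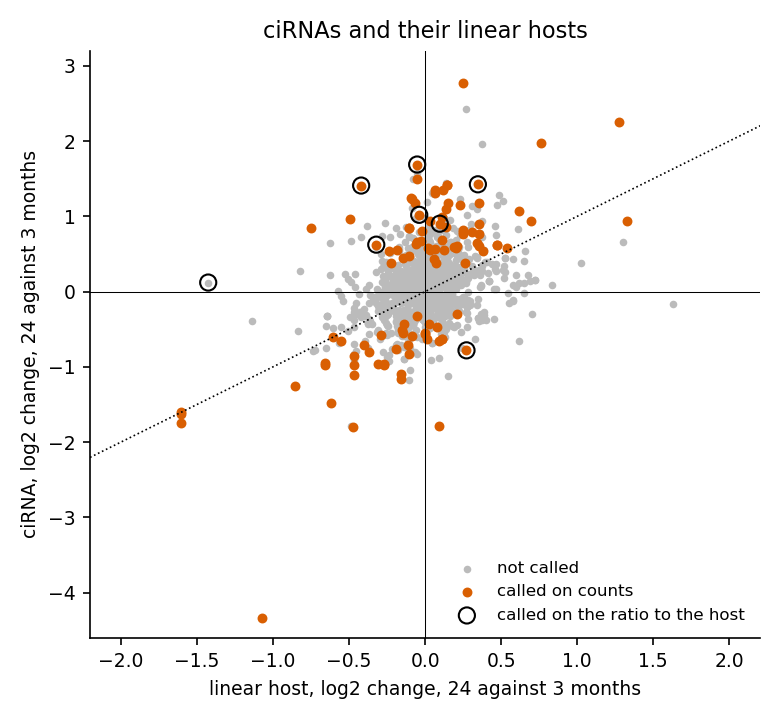
Log2 change from 3 to 24 months of each tested ciRNA (vertical axis) against that of its linear host gene (horizontal axis). Most points that passed the ciRNA test belong to hosts that did not pass theirs, with Ndrg1 ciRNAs at −1.60 on the horizontal axis and between −1.75 and −1.60 on the vertical, and Hspa8 ciRNA520 at −1.43 and 0.12.

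Hosts among tubule genes were counted from lists of markers and transporters. Of 20 proximal tubule genes, 9 are hosts of 14 ciRNAs, of which 0 rose and 3 fell, with a median log2 change of −0.44. Of all circRNAs tested 6.66% rose and 6.61% fell, and the median of all ciRNAs tested was 0.06. Both Slc4a4 ciRNAs are among the 3. Of 10 genes of the thick limb and distal tubule, 4 are hosts of 19 ciRNAs, of which 2 rose, both of Umod, and 0 fell, with a median of 0.27. None of 9 collecting duct genes is a host, and 0 of the 9 changed in linear RNA. In linear RNA, 0 of the 20 proximal and 1 of the 10 distal genes changed, the calcium channel gene Trpv5 (log2 change −0.60, limma adjusted p = 0.0221), where 0.86% of all genes did. With so few members these counts are no result about a segment.

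Genes that make or remove lariats showed no called change in linear RNA between 3 and 24 months. This held for 12 of 12 genes of lariat turnover and release, 13 of 13 of branch point recognition and 6 of 6 measured genes of circular RNA export and decay, in limma on log2(summed FPKM + 1). Of all genes 0.86% were called, so a count of 0 in lists of this size is near the background. At an unadjusted p under 0.05 these lists held 1 higher gene, 2 higher and 1 lower, and 1 lower. Dbr1 itself stood at 2.26 ± 0.663 FPKM at 3 months, 2.95 ± 0.559 at 12 months and 3.24 ± 0.620 at 24 months (log2 change 0.39 ± 0.17, limma adjusted p = 0.341). No lariat turnover gene is a host. Of the branch point genes, Sf3b3 has 2 ciRNAs and Sf3a3 has 1, and Sf3b3 ciRNA427 rose (log2 change 0.47 ± 0.14, edgeR adjusted p = 0.0493). The export gene G3bp2 hosts ciRNA1088, at a log2 change of 0.74 ± 0.23 (edgeR adjusted p = 0.0516).

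Of the 10 most abundant ciRNAs, 2 changed between 3 and 24 months: Gm45193 ciRNA464, above, and Gpx3 ciRNA907. Gpx3 ciRNA907 stood at 322, 397, 303, 331 and 243 CPM in the 3-month mice and at 177, 289.6, 191, 225 and 204 in the 24-month mice, with 1 old mouse inside the young range. It fell by 0.56 ± 0.15 on the log2 scale (edgeR adjusted p = 0.0269), but did not pass without 24-month mouse 31, 33, 34 or 35 or without 3-month mouse 6 or 8 (adjusted p up to 0.0742). Malat1 ciRNA303 stood at 16785 ± 1116 CPM at 3 months and 15049 ± 852 at 24 months (log2 change −0.16 ± 0.10, edgeR adjusted p = 0.306). Linear Malat1 stood at 425 ± 325 and 949 ± 473 FPKM (log2 change 1.63 ± 0.74, limma adjusted p = 0.367), opposite in sign to the ciRNA entry inside its exon. The others had log2 changes between −0.35 for Ppargc1a ciRNA472 and 0.22 for Plxna2 ciRNA741. Sod1 ciRNA187, whose ends are shown above, rose from 14.6 ± 2.59 to 21.7 ± 3.66 CPM (log2 change 0.57 ± 0.14, edgeR adjusted p = 0.0205), with linear Sod1 at a log2 change of 0.07. Of the 9 ciRNAs with a snoRNA gene inside, 1 rose, Rpl5 ciRNA712 (log2 change 0.38, edgeR adjusted p = 0.0416), from the gene of a ribosomal protein.

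Between 3 and 12 months, 45 of 1115 ciRNAs changed (6.63% of all circRNAs did), 24 upward (3.44% of all) and 21 downward (3.2% of all). An unadjusted edgeR p under 0.05 was found for 200, and for 2825 of all 11923 circRNAs. The calls counted against all reads of a mouse were 19 higher and 27 lower, and with no TMM factor 33 and 17. This comparison shares its 3-month mice with the one above. Without 12-month mouse 17, 18, 19, 20 or 21 there were 25, 21, 12, 24 or 18 calls, and without 3-month mouse 8 there were 20. Trim68 ciRNA998, of a ubiquitin ligase gene, had the smallest p. It stood at 1.96, 1.70, 1.43, 1.58 and 1.66 CPM in the 3-month mice, at 4.22, 4.56, 4.71, 3.49 and 3.57 in the 12-month mice and at 3.79, 2.48, 4.63, 5.18 and 2.86 in the 24-month mice. Both older ages lay above the youngest, with a log2 change of 1.30 ± 0.17 from 3 to 12 months (edgeR adjusted p = 0.00294) and −0.12 ± 0.20 from 12 to 24 months (edgeR adjusted p = 0.779).

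The others with the smallest p that rose by 12 months were Nisch ciRNA776 (log2 change 0.38 ± 0.07), Vangl1 ciRNA1101 (1.36 ± 0.28), Atp5g3 ciRNA727 (0.59 ± 0.13) and St5 ciRNA387 (0.53 ± 0.12). Vangl1 is a gene of planar cell polarity, and Atp5g3 encodes a subunit of the mitochondrial ATP synthase. Those that fell were Aff1 ciRNA569 (−0.81 ± 0.13), Cgnl1 ciRNA416 (−0.71 ± 0.12), Col4a3 ciRNA810 (−0.91 ± 0.16), Ndrg1 ciRNA375 (−1.60 ± 0.31) and Chka ciRNA925 (−0.995 ± 0.20). Cgnl1 encodes a protein of cell junctions and Aff1 one of transcription elongation. The edgeR adjusted p of the 9 lay between 0.0085 and 0.022. Of the leaders at 24 months, Cit ciRNA135 (log2 change 1.07 ± 0.25), Umod ciRNA123 (1.19 ± 0.27), Hsd3b3 ciRNA488 (0.90 ± 0.22) and Ndrg1 ciRNA299 (−1.14 ± 0.27) had also changed by 12 months. These 4 calls were lost without 1 or another of 12-month mice 17 to 21 or 3-month mice 7 and 8, with adjusted p up to 0.0696, and that of Chka ciRNA925 was not. Fam134b ciRNA189 (−0.93 ± 0.30, edgeR adjusted p = 0.0752) and Col27a1 ciRNA139 (0.46 ± 0.35, edgeR adjusted p = 0.458) did not pass.

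Relative to the linear host, 4 of 1115 ciRNAs changed from 3 to 12 months (0.361% of all circRNAs did). An unadjusted limma p under 0.05 was found for 147, and for 1327 of all 11921 circRNAs. The limma ratio rose for Nisch ciRNA776 (0.75 ± 0.13) and Tardbp ciRNA718 (0.65 ± 0.12) and fell for Dst ciRNA950 (−0.76 ± 0.12) and Col4a3 ciRNA810 (−0.73 ± 0.13), with adjusted p between 0.0326 and 0.0495. Tardbp encodes an RNA-binding protein of splicing and Dst a linker of the cytoskeleton. Leaving out any 1 mouse gave 0 such calls, except 1 without 3-month mouse 9. Of 880 hosts, 0 changed in limma (0.0788% of all genes did), and 150 had an unadjusted p under 0.05 (13.4% of all genes did).

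Between 12 and 24 months, 4 of 1116 ciRNAs changed (0.738% of all circRNAs did), 2 upward (0.31% of all) and 2 downward (0.428% of all). An unadjusted edgeR p under 0.05 was found for 132, and for 2014 of all 11925 circRNAs. Cit ciRNA135 and Col27a1 ciRNA139 rose, with log2 changes of 1.18 ± 0.18 and 1.504 ± 0.23 (edgeR adjusted p = 0.0203 for each). Col27a1 ciRNA139 stood at 1.69, 1.87, 2.46, 0.872 and 1.73 CPM in the 12-month mice and at 5.199, 4.31, 5.25, 6.69 and 3.66 in the 24-month mice, with a gap between the ages. Gm6300 ciRNA322 and Cyp4b1 ciRNA400 fell, with log2 changes of −3.55 ± 0.60 and −1.31 ± 0.24 (edgeR adjusted p = 0.0203 and 0.0248). The other leaders of the comparison of 24 with 3 months had log2 changes between −0.87 for Fam134b ciRNA189 and 0.56 for Gm45193 ciRNA464 and did not pass.

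Cyp4b1 ciRNA400, from a cytochrome P450 gene, was highest at 12 months. It stood at 7.45, 12.4, 22.5, 12.9 and 12.4 CPM in the 3-month mice, at 39.9, 21.4, 42.4, 40.1 and 19.2 in the 12-month mice and at 12.1, 15.04, 7.88, 13.6 and 17.3 in the 24-month mice. The 24-month mice all lay below the 12-month mice and within the range of the 3-month mice. The log2 change from 3 to 12 months was 1.26 ± 0.28 (edgeR adjusted p = 0.0226) and from 3 to 24 months −0.04 ± 0.26 (edgeR adjusted p = 0.935), and the linear gene had log2 changes of 0.07 and −0.31. No ciRNA was called with all 15 mice in one fit or without 24-month mouse 33, 2 were called without 24-month mouse 34 or 12-month mouse 17, and 9, 10 and 26 without 24-month mouse 35, 24-month mouse 32 and 12-month mouse 21.

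On the ratio to the host, 0 of 1116 ciRNAs changed from 12 to 24 months in limma, as did 0% of all circRNAs, and 115 had an unadjusted p under 0.05 (7.93% of all circRNAs did). The smallest p belonged to Adhfe1 ciRNA949 (0.59 ± 0.12) and Tubgcp4 ciRNA576 (0.51 ± 0.12) among higher ratios and to Gm6300 ciRNA322 (−1.52 ± 0.32) and Usp2 ciRNA336 (−0.56 ± 0.13) among lower ones, each with a limma adjusted p of 0.562. Of 880 hosts, 0 changed in limma (0.00309% of all genes did), and 92 had an unadjusted p under 0.05 (6.38% of all genes did).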

How the data were processed

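Total RNA of 15 kidneys, 1 library per mouse and 5 mice per age, was sequenced. The authors deposited a circRNA table with estimated counts and FPKM per mouse and a transcript table with FPKM per mouse. Per the study's methods, reads were trimmed with Cutadapt and aligned to GRCm38 (Ensembl release 88) with Bowtie2 and HISAT2, and StringTie gave the linear FPKM; the submitters' processing notes name StringTie, TopHat and TopHat2. The tool that called and counted circRNAs is not given in the sources used here.

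The members and lists were chosen with earlier results of these data known. The estimated counts were rounded, and every circRNA with a count in 5 or more of the 10 mice entered 1 fit of edgeR's quasi-likelihood test (TMM, Benjamini-Hochberg over all circRNAs, adjusted p under 0.05). FPKM were summed per host gene over its transcripts, and log2(FPKM + 1), or log2(CPM + 1) less that value, was tested with limma with a trend. Fold changes on these scales understate changes of low genes. The 3978 transcripts with no gene name held 0.699% to 1.23% of linear FPKM and were left out of gene sums. Shares and numbers were compared with exact two-sided permutation tests over mice. ± is the SD in levels and the SE in log2 changes. Depth was 6974494 to 9889971 circRNA counts per mouse. Introns, exons and sequences came from GENCODE M21.

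The ciRNAs named were the 10 with the highest mean CPM; in each comparison the 5 called with the smallest p in each direction; on the ratio the 3 called likewise (where none was called, the 2 with the smallest p); those of the 5 hosts with the most ciRNAs, with ties; and the leaders of the comparison of 24 with 3 months in the other comparisons. All other members were named after their values were seen. A result for a single ciRNA is not reported here. Alternatives were DESeq2, other scalings, filters, pseudocounts and host measures, all 15 mice in one fit, and leaving out each mouse. R 4.3.3, edgeR 4.0.16, limma 3.58.1, DESeq2 1.42.0, Python 3.11.15 and scipy 1.17.1 were used.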

Additional observations from a re-analysis of the deposited data

Results flagged for a closer look

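In 120 checks of named values within the 5 mice of an age, 12 values stood apart from those of the other 4 mice by Dixon's test, and chance gives about 1 in 20. Mouse 32 at 24 months stood apart in 5 of them: its share of circRNA counts on ciRNAs was 3.38% against 3.08% to 3.15% in the others, Malat1 ciRNA303 stood at 16539 CPM against 14490 to 14955, Umod ciRNA460 at 1513 against 979 to 1132, Atp1b1 ciRNA517 at 206 against 148 to 161, and Atp5g3 ciRNA727 at 13.99 against 11.8 to 12.3. Also at 24 months, Col4a3 ciRNA810 stood at 54.8 CPM in mouse 35 against 27.4 to 34.4, and Ndrg1 ciRNA299 at 14.8 in mouse 33 against 22.6 to 25.6. At 12 months, Malat1 ciRNA303 stood at 14254 CPM in mouse 19 against 15914 to 16458, Ndrg1 ciRNA375 at 33.1 in mouse 18 against 52.6 to 60.3, and Slc12a3 ciRNA1119 at 1894 in mouse 21 against 1122 to 1293. At 3 months, Col4a3 ciRNA810 stood at 115 CPM in mouse 5 against 56.7 to 72.6, and Aff1 ciRNA569 at 17.98 in mouse 8 against 15.2 to 15.9.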

How the results depend on the processing

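No paired analysis was possible because no replicate number is shared between ages. Of 896 alternative values of named ciRNAs, 766 kept their direction and side of the threshold, 130 kept the direction and lost the call, and 0 reversed. For 24 against 3 months, 106 ciRNAs were called, 112 with DESeq2 and 56 to 132 with single mice left out. For 12 against 3 months, 45 were called, 70 with DESeq2, 68 with all 15 mice in one fit, 25 with limma on log2(FPKM + 1) and 12 to 49 with single mice left out. For 24 against 12 months, 4 were called, 15 with DESeq2, 0 with all 15 mice, 2 with limma and 0 to 26 with single mice left out. The 8 ratio calls for 24 against 3 months became 4 with Ensembl transcripts only, 22 with all 15 mice, 5 with a pseudocount of 0.1 and 0 to 13 with single mice left out. The 4 for 12 against 3 months became 0 with Ensembl transcripts only and 0 to 1 with single mice left out. Hosts called for 24 against 3 months numbered 2 to 16 with single mice left out, and those for 12 against 3 months, 0 as reported, 10 with all 15 mice, 4 at a mean FPKM of at least 1, 2 with a pseudocount of 0.1 and 0 to 1 with single mice left out. The difference in the ciRNA share for 24 against 3 months was −0.0123 percentage points, −0.0930 with the deposited FPKM (p = 0.167, exact permutation test), 0.0778 without Malat1 ciRNA303, 0.0284 without the 10 most abundant and −0.0645 to 0.0189 with single mice left out (0.0122, 0.00879 and 0.0189 without mouse 35, 5 or 9). For 12 against 3 months it was −0.0445, −0.115 with the deposited FPKM (p = 0.0556, exact permutation test), 0.0128 without Malat1 ciRNA303 and −0.0830 to 0.00775 with single mice left out, the latter without mouse 19. For 24 against 12 months it was 0.0322, 0.0425 without the 10 most abundant (p = 0.00794, exact permutation test) and −0.0201 to 0.0655 with single mice left out (−0.0200 and −0.0201 without mouse 32 or 19). The gain in the number above 0 ranged with single mice left out from 4.35 to 5.85 for 24 against 3 months, 2.35 to 3.85 for 12 against 3 and 1.35 to 2.6 for 24 against 12, where the gain at 1 CPM was 22 (p = 0.0238, exact permutation test). For 12 against 3 months, leaving out mouse 5 or 9 gave 3.85 with an exact permutation p of 0.0476. Members named after their values were seen are given as reported only. The cause of these changes was not tested. A library size from all reads was chosen after the data were seen. Scarce members limit precision: 634 ciRNAs had under 1 FPKM.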
